A study of Mus musculus with 14 samples.

Results

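The Myc, Max and Mxd network is a family of transcription factors, described here through the mouse genes Myc, Max, Mxd1, Mxd3, Mxd4, Mxi1, Mnt, Mlx, Mlxip and Mga. The members were chosen by name: a gene belonged if its gene name in the count and FPKM tables was one of these 10, out of 54532 genes in the tables. Of the 10 members, 9 passed the filter on low counts, as did 15458 genes in all, and Mxd3 did not. Proteins of this family bind DNA as dimers through a basic helix-loop-helix leucine zipper and recognise the E-box. Myc with Max activates genes of growth and ribosome production, whereas Mnt and the Mxd proteins compete for Max and recruit Sin3 and histone deacetylases to repress such genes. Mlx serves as the partner of the glucose-responsive factor Mlxip, also called MondoA, which is abundant in skeletal muscle.

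The study sequenced poly-A RNA of skeletal muscle from male FVB/N mice to follow the effects of endothelial Myc during diet-induced obesity. All 4 groups carried the Tet-O-Myc transgene. The EC-Myc OE (OE) mice also carried Cdh5-tTA, so that the human c-Myc sequence was switched on in endothelial cells by withdrawal of doxycycline at 4 to 6 weeks of age, and the control (CT) mice were littermates that lacked tTA. Mice ate a control diet (CTD) or a high-fat, western diet (WD). The duration is 20 weeks in the labels, which were followed. The methods of the study give the same total, while its results text gives a shorter exposure for the muscle transcriptome. The 4 groups were CT-CTD with 3 libraries, CT-WD with 3, OE-CTD with 4 and OE-WD with 4, each library being a separate column of the tables. The labels number the libraries of a group as replicates and do not say that each came from its own mouse, so the p-values measure the spread between these libraries, which may be technical. The methods of the study name soleus and gastrocnemius, and the labels do not say which muscle a library came from. Cdh5-tTA drives the transgene in endothelial cells, which are a minor part of muscle, and the tables hold mouse genes only. Whether any read of the human transgene was counted on mouse Myc cannot be told from these tables. Skeletal muscle markers were high in every library, summing to between 88420 and 121100 CPM (counts divided by the TMM-scaled library total, as throughout), with Acta1 the most abundant.

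Total counts lay between 21833839 and 28519159 per library. OE-CTD 4 and OE-WD 4 stood apart from the other 6 OE libraries. Mitochondrial genes took 14.9% of the counts in OE-CTD 4 and 14.5% in OE-WD 4, against 9.66 to 12.8% in the other 12 libraries. Their scaling factors were 0.8877 and 0.8992, the lowest of the 14. Their fast fibre markers summed to 145700 and 151500 CPM, and no other OE library exceeded 120500. CT-WD 1 was the CT library with the highest sum of fibroblast markers, 940.7 CPM, and of tendon markers, 442.8 CPM, where the other CT libraries did not exceed 412.6 and 223.1. The codes of OE-CTD 1 to 3 share their digits, as do the codes of all 4 OE-WD libraries, while no CT codes do, and the meaning of the digits is not given. Between libraries of a group, the chi-square of the counts per degree of freedom was 7.808 to 10.57 among OE-CTD 1 to 3 and 8.522 to 15.21 among OE-WD 1 to 3. It was 16.81 to 50.8 in the CT groups, 36.98 to 43.01 for OE-CTD 4 and 38.89 to 42.76 for OE-WD 4 against the others of their group. No pair agreed within sampling noise, and all libraries were kept as replicates. As an alternative chosen after seeing the data, libraries of a group with the same digits were summed, which leaves 2 samples in OE-CTD and 1 in OE-WD, the lone one being assumed to vary like the other groups. Genes altered in OE-CTD against CT-CTD were then 1 in place of 295, and in OE-WD against CT-WD 0 in place of 87.

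Results are given for all libraries, and where OE-CTD 4 and OE-WD 4 bear on a member, also without both, a choice made after seeing the data. The sample sizes stated by the study split by diet, whereas those of the labels split by genotype, and what they count is not said. The labels were kept, and the members were also counted after swapping those of CT-WD and OE-CTD. With that swap the altered genes in OE-WD against CT-WD were 1 in place of 87, and in CT-WD against CT-CTD 295 in place of 0. Foxo1, at -1.02 in OE-WD against CT-WD (p 0.000965), would there have the value that is now between OE-WD and OE-CTD, 0.12 (p 0.628).

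No member met both limits by which a gene was called altered, a fold over 1.5 with an adjusted p under 0.05 over all tested genes. The count of altered members was 0 in every comparison by edgeR, by DESeq2 and by limma. Mnt alone passed the adjusted p of 0.05 in edgeR, in OE-CTD against CT-CTD, and it did not pass when libraries with the same code digits were summed. The comparisons that share a group are not independent of each other.

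The comparison of CT-WD with CT-CTD asks what the western diet did in control mice. Altered genes were 0% of those tested by edgeR, genes at an adjusted p under 0.05 were 0%, and genes at an unadjusted p under 0.05 were 7.28%. At the unadjusted limit 2 of the 9 tested members stood out, Myc and Mnt, both higher on the western diet. DESeq2 called 31 genes altered here and limma 0, none of them a member. With 9 tested members, 1 gene already exceeds a share of 7.28%. Libraries of the groups did not overlap for 1 member, Mxd4, as for 9.63% of all tested genes.

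The comparison of OE-WD with OE-CTD asks the same in overexpressing mice. Altered genes were 0.00647% of those tested, genes at an adjusted p under 0.05 were also 0.00647%, and genes at an unadjusted p under 0.05 were 4.2%. Mga was the 1 member at the unadjusted limit, higher on the western diet. The groups overlapped for every tested member, while 4.08% of tested genes did not overlap.

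In OE-WD against CT-WD, the effect of genotype on the western diet, altered genes were 0.563%, genes at an adjusted p under 0.05 were 0.725% and genes at an unadjusted p under 0.05 were 16.9%. The 2 members at the unadjusted limit were Mnt, higher in OE-WD, and Max, lower. Mnt was the 1 member whose groups did not overlap, against 11.6% of tested genes. A share of 2 in 9 members is near the background.

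In OE-CTD against CT-CTD, the effect of genotype on the control diet, altered genes were 1.91%, genes at an adjusted p under 0.05 were 2.67% and genes at an unadjusted p under 0.05 were 15.9%. Mnt was the 1 member at the adjusted limit, a share that 1 gene of 9 exceeds by itself. At the unadjusted limit there were 2 members, Mnt, higher in OE-CTD, and Mga, lower. The same 2 members did not overlap between groups, against 15.5% of tested genes. The unadjusted share of 2 in 9 is again near the background.

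The interaction asks whether the diet response differed between genotypes. Altered genes were 0% in edgeR, genes at an adjusted p under 0.05 were 0%, and genes at an unadjusted p under 0.05 were 5.92%. No member had an unadjusted p under 0.05 here, and neither DESeq2, which called 9 genes altered, nor limma, which called 0, called a member. Over the 9 tested members the median log2 fold change was 0.01 in CT-WD against CT-CTD, 0.074 in OE-WD against OE-CTD, 0.0065 in OE-WD against CT-WD and -0.04 in OE-CTD against CT-CTD. The medians of all tested genes were 0.0071, 0.0048, 0.0056 and -0.0007 in the same order.

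**Figure D1:**
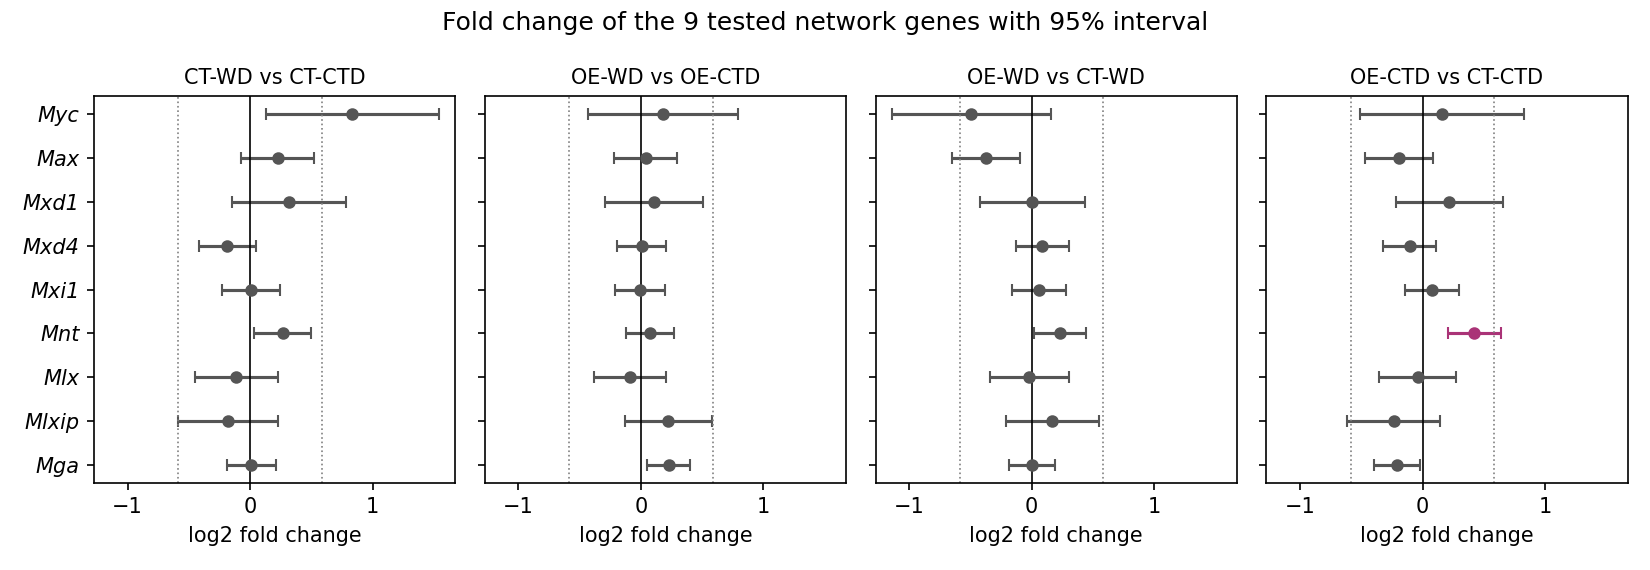
Log2 fold change (x axis) of the 9 tested members in each of 4 comparisons, 1 panel a comparison, with bars for the 95% confidence interval of the edgeR fit and dotted lines at a fold of 1.5 in either direction. Mnt in OE-CTD against CT-CTD is the coloured point, the only value with an adjusted p under 0.05, and the intervals of Myc are the widest.

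Levels of the members were compared per length, in FPKM. Mlxip was the most abundant member, with a mean of 15.2 FPKM over the 14 libraries, a level above 84.9% of tested genes. It was followed by Mxi1 at 10.3, Max at 7.36, Mxd4 at 5.63, Mlx at 4.97, Mnt at 4.59, Myc at 2.59, Mga at 2.29, Mxd1 at 0.76 and Mxd3 at 0.036 FPKM. Muscle thus held more RNA per length of Max and of the repressor genes Mxi1, Mxd4 and Mnt than of Myc itself, which sat at percentile 51.6.

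Neighbours in this order were not all separated. Mlxip exceeded Mxi1 in 14 of 14 libraries, Mxi1 exceeded Max in 13 and Max exceeded Mxd4 in 14, although the ranges of each of these pairs overlapped between libraries. Mxd4 exceeded Mlx in 11 libraries, Mlx exceeded Mnt in 7, and Myc exceeded Mga in 9, so these neighbours did not differ beyond their spread. Mnt exceeded Myc in 13 libraries. Ranges of neighbours did not overlap at the low end of the order, with 1.98 to 2.79 FPKM for Mga, 0.512 to 0.956 for Mxd1 and 0 to 0.141 for Mxd3.

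**Figure D2:**
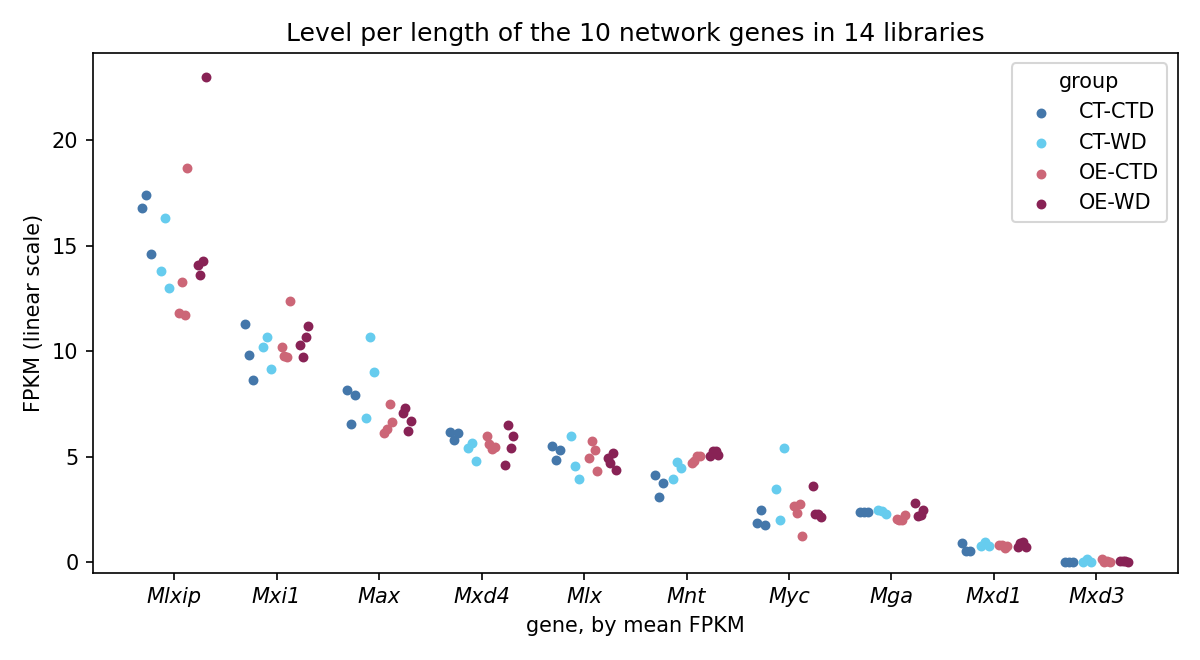
FPKM (y axis, linear) of the 10 members in the 14 libraries (1 point a library, coloured by group), with the genes in the order of their means. Mlxip lies highest, with its top values in OE-WD 4 at 23 FPKM and OE-CTD 4 at 18.7 FPKM, and Mxd3 lies at the bottom.

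Myc, the growth-promoting activator of the network, was the most variable of the 9 tested members, with a coefficient of variation of 39.4% over the libraries. Its levels were 4.59, 6.11 and 4.45 CPM in CT-CTD and 8.71, 4.93 and 13.3 CPM in CT-WD. The OE-CTD levels were 6.63, 5.87, 6.84 and 3.06 CPM, and the OE-WD levels 9.03, 5.61, 5.74 and 5.22 CPM. CT-WD 3, OE-WD 1 and CT-WD 1 were the high libraries and OE-CTD 4 was the lowest, and the groups overlapped in every comparison. In CT-WD against CT-CTD the log2 fold change of Myc was 0.84 (SE 0.332, 95% interval 0.129 to 1.54), with p 0.0235 and adjusted p 0.604 in edgeR. Over the alternatives that adjusted p ran from 0.252 to 0.982. Without CT-WD 3 the log2 value was 0.44, and without CT-WD 2 it was 1.12. With a replicate block fitted over the libraries of both genotypes it was 0.78, with adjusted p 0.479.

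Between genotypes mouse Myc passed neither the adjusted nor the unadjusted limit. The log2 fold change of Myc was 0.16 (SE 0.315) in OE-CTD against CT-CTD, with p 0.62, and -0.49 (SE 0.304) in OE-WD against CT-WD, with p 0.126. The diet gave 0.18 in OE mice (SE 0.288, p 0.532), and the interaction was -0.65 (SE 0.439, p 0.158). These values depended on single libraries. Leaving out CT-WD 2 gave -0.78 in OE-WD against CT-WD and -0.94 in the interaction, and leaving out CT-WD 3 gave -0.10 and -0.26. The genotype value on the control diet ran from 0.05 (without OE-CTD 3) to 0.35 (without OE-CTD 4), and the diet value in OE mice from -0.028 (without OE-WD 1) to 0.30 (without OE-CTD 3). None of the 4 intervals of Myc outside the interaction lay within a fold of 1.5 in both directions, from -1.14 at the lowest bound to 1.54 at the highest, so none of them excludes a change of that size, and the interval in CT-WD against CT-CTD lay wholly above 0. Without OE-CTD 4 and OE-WD 4 together the value in OE-CTD against CT-CTD was 0.35 (p 0.26), and with the libraries of shared code digits summed it was -0.056 (p 0.892). Counts of Myc ran from 60 to 300 per library.

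Immediate-early genes, which are induced within minutes of a stimulus and here mostly encode transcription factors, were high in several of the same libraries as Myc. The 10 genes of this list summed to 208.4, 260.5 and 222.7 CPM in CT-CTD and to 408.1, 269.6 and 719.4 CPM in CT-WD. OE-CTD had sums of 372.7, 311.5, 334.4 and 207.7 CPM, and OE-WD of 367.3, 265.9, 306.9 and 239.2 CPM. CT-WD 3 had the highest sum and the highest Myc, and OE-CTD 4 the lowest sum and the lowest Myc. Jun was the most abundant gene of the list by group, and none of its genes was at 0 in any library. On the western diet in CT mice 7 of the 10 were higher at an unadjusted p under 0.05 in edgeR and 0 passed the adjusted limit. Their median log2 fold change was 1.27, with Atf3 at 3.05 (adjusted p 0.394) and Fosb at 2.35 (adjusted p 0.394). Junb and Ier2 were higher in OE-CTD than in CT-CTD, with log2 values of 1.56 and 1.22 (adjusted p 0.00704 and 0.0386), 2 of the 5 genes higher at an unadjusted p, while Jun was the 1 gene lower at that p (-0.42, p 0.0147). In OE-WD against CT-WD 1 was higher and 3 were lower at an unadjusted p, with Atf3 at -2.45 (p 0.00254), and in OE-WD against OE-CTD 1 was higher and 1 lower. The interaction had 6 of 10 lower at an unadjusted p under 0.05 and 0 at the adjusted limit, with a median of -1.33. Their part in the Myc values was not tested.

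Over the 14 libraries the log2 levels most like those of Myc, among 11746 genes, were those of Plk2 (r 0.882), Hsp90aa1 (r 0.875), Dnaja1 (r 0.875), Fos (r 0.875) and Ptpn2 (r 0.846). These correlations describe 14 libraries that share groups, depth and the high and low Myc libraries named above.

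Max is the partner that Myc, the Mxd proteins, Mnt and Mga need to bind DNA. Its levels were 27, 21.5 and 26.2 CPM in CT-CTD and 22.7, 35 and 29.6 CPM in CT-WD. OE-CTD had 20.2, 20.9, 24.7 and 21.5 CPM, and OE-WD had 23.3, 24.1, 20.5 and 21.7 CPM. CT-WD 2 and CT-WD 3 lay above every OE library, while CT-WD 1 lay among them, so the groups overlapped. In OE-WD against CT-WD the log2 fold change of Max was -0.37 (SE 0.13), with p 0.0114 and adjusted p 0.168 in edgeR. Without CT-WD 1, the library high in fibroblast and tendon markers, it was -0.53 with adjusted p 0.0148, and without CT-WD 2 it was -0.22, and the adjusted p ran from 0.0148 to 1 over the alternatives. In the other comparisons Max gave log2 values of 0.22 in CT-WD against CT-CTD (p 0.129; 0.072 without CT-WD 2 and 0.38 without CT-WD 1), 0.039 in OE-WD against OE-CTD (p 0.753) and -0.19 in OE-CTD against CT-CTD (p 0.169; -0.28 without CT-CTD 2). The Max interaction was -0.19 (p 0.333; -0.34 without CT-WD 1 and -0.033 without CT-WD 2). Its levels were most like those of Slc7a8 (r 0.935), Ankrd9 (r 0.93) and Lrrc58 (r 0.916) over the 14 libraries.

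Mnt, a broadly present repressor that pairs with Max and also with Mlx, was the 1 member to pass a test over all genes. Its levels were 17.5, 12.9 and 15.9 CPM in CT-CTD and 16.9, 20.1 and 18.8 CPM in CT-WD. OE-CTD had 19.9, 20.5, 21.4 and 21 CPM, and OE-WD had 21.4, 22.2, 22.5 and 21.1 CPM. All 4 OE-CTD libraries lay above all 3 CT-CTD libraries, and all 4 OE-WD libraries above all 3 CT-WD libraries. CT-CTD 2 was the lowest of the 14. The gene, ENSMUSG00000000282, lies on the plus strand of chromosome 11. Mnt was higher in OE-CTD than in CT-CTD by 0.42 on the log2 scale (SE 0.102, 95% interval 0.206 to 0.639), a fold of 1.34, with p 0.000805 and adjusted p 0.0396 in edgeR. The fold is under the limit of 1.5, so Mnt was not called altered.

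The call on Mnt lay close to the limit. Its adjusted p ran from 0.00759 to 0.467 over the alternatives and was under 0.05 in 9 of 23, including 5 of the 14 in which 1 library was left out. It was above the limit without CT-CTD 2 (log2 0.31, adjusted p 0.187), without CT-CTD 3 (0.44, 0.128) and without OE-CTD 1 (0.44, 0.0699), OE-CTD 2 (0.43, 0.0968), OE-CTD 3 (0.40, 0.109) or OE-CTD 4 (0.41, 0.057). It was also above it without OE-WD 1 (adjusted p 0.0527), OE-WD 2 (0.0521) or OE-WD 3 (0.0593), where the log2 value stayed 0.42. Without OE-CTD 4 and OE-WD 4 together the log2 value of Mnt was 0.41 and the adjusted p 0.0568. Summing the libraries of shared code digits left the log2 value at 0.42, with p 0.0159 and adjusted p 0.467. If the labels of CT-WD and OE-CTD were swapped, this Mnt difference would lie between CT-WD and CT-CTD.

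Mnt in OE-WD against CT-WD gave a log2 fold change of 0.23 (SE 0.101), with p 0.037 and adjusted p 0.263. In CT-WD against CT-CTD it gave 0.27 (SE 0.108), with p 0.0264 and adjusted p 0.62, and the groups overlapped. Without CT-CTD 2 that value was 0.15, and without CT-CTD 1 it was 0.36. Values of cell type markers were higher for some lists and lower for others in these CT-WD libraries. Endothelial sums, given below, were 567.6 to 612.6 CPM in CT-CTD and 630.2 to 719.3 CPM in CT-WD, with 13 of 14 genes higher, 4 of them and 1 lower (Kdr) at an unadjusted p under 0.05. Macrophage markers were higher in 8 of 8, 2 at that p, and fibroblast markers in 5 of 5, 1 at that p, with sums that overlapped. The fibroblast sums of CT-WD 2 and 3 were below those of CT-CTD 1 and 2, and only CT-WD 1 lay above all of CT-CTD. Adipocyte markers were lower in 6 of 6 (median -0.976), Schwann cell markers in 4 of 5 and satellite cell markers in 3 of 4, with 0 at that p. By replicate number, endothelial and macrophage sums were higher in CT-WD for every number, while adipocyte and satellite cell sums were lower. Fibroblast and Schwann cell sums went in either direction. Macrophage sums were 125.7, 62.28 and 52.86 CPM in CT-WD against 78.5, 47.11 and 41.65 CPM in CT-CTD. Adipocyte sums were 144, 41.17 and 23.16 CPM against 182.7, 86.69 and 45.82 CPM. None of these marker genes passed the adjusted limit, and their part in this Mnt value was not tested. The log2 value in OE-WD against OE-CTD was 0.074 (p 0.437). The Mnt interaction, -0.19 (SE 0.143), had p 0.197 and ran from -0.29 (without CT-CTD 1) to -0.081 (without CT-CTD 2), so the diet response of Mnt was not shown to differ between genotypes. Akap10 (r 0.914), Ptpn9 (r 0.9) and Shb (r 0.879) had the levels most like those of Mnt over the 14 libraries.

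Markers of some other cell types were higher in the same OE-CTD libraries as Mnt, while adipocyte markers were lower in 5 of 6 (median -0.187). In this bulk tissue, more cells of a type and more RNA per cell cannot be told apart, nor can fewer cells and less RNA per cell. Fibroblast markers, with Dcn the most abundant in both control diet groups, summed to 412.6, 385.7 and 301.6 CPM in CT-CTD and to 886.9, 1042, 978.5 and 608.9 CPM in OE-CTD. All 5 were higher at an unadjusted p under 0.05, and 0 passed the adjusted limit in edgeR. Macrophage markers, with Lyz2 the most abundant, summed to 78.5, 47.11 and 41.65 CPM in CT-CTD and to 81.08, 98.41, 126.7 and 80.48 CPM in OE-CTD, with 7 of 8 higher at that p and 0 at the adjusted limit. Endothelial markers summed to 571.9, 567.6 and 612.6 CPM in CT-CTD, with Eng the most abundant, and to 696.1, 711, 683.9 and 643.5 CPM in OE-CTD, with Cdh5 the most abundant. Of the 14 endothelial genes 7 were higher at an unadjusted p under 0.05, and Tek passed the adjusted limit (log2 0.52, adjusted p 0.0232). Tendon markers, led by Fmod, summed to 223.1, 98.91 and 157.6 CPM in CT-CTD and to 381.9, 559.2, 462.6 and 289.3 CPM in OE-CTD, with 3 of 5 higher at an unadjusted p under 0.05. The sums of these lists did not overlap between CT-CTD and OE-CTD, and none of their markers was at 0 in any library. Their part in the Mnt difference was not tested.

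In the western diet groups, where Mnt also did not overlap, endothelial markers summed to 684, 630.2 and 719.3 CPM in CT-WD and to 737.2, 732.5, 752.6 and 744.3 CPM in OE-WD, with Cdh5 higher by 0.46 on the log2 scale (adjusted p 0.0322 in edgeR) and 7 of the 14 genes higher at an unadjusted p under 0.05. Of that list 9 were higher and 5 lower, and Flt1 was lower at an unadjusted p (-0.33, p 0.0125). Fibroblast markers summed to 940.7, 336.8 and 330.2 CPM in CT-WD and to 671.3, 1513, 859.4 and 717.5 CPM in OE-WD. Tendon markers summed to 442.8, 81.61 and 104.7 CPM in CT-WD and to 381.8, 775.9, 515 and 286 CPM in OE-WD. Macrophage markers summed to 125.7, 62.28 and 52.86 CPM in CT-WD and to 75.29, 125.1, 75.97 and 81.79 CPM in OE-WD. Of these 4 lists only the endothelial sums kept the groups apart, as Mnt did, and the other sums overlapped through CT-WD 1. Adipocyte markers were higher in 5 of 6 (median 0.653), with Lep at 2.55 (p 0.00388 in edgeR) the 1 gene at an unadjusted p under 0.05. Mural cell markers were higher in 4 of 6, 2 at that p. Slow fibre markers were higher in 2 of 7, 2 at that p, and lower in 5. None of these 3 lists held a gene past the adjusted limit. The part of these markers in this Mnt value was not tested.

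**Figure D3:**
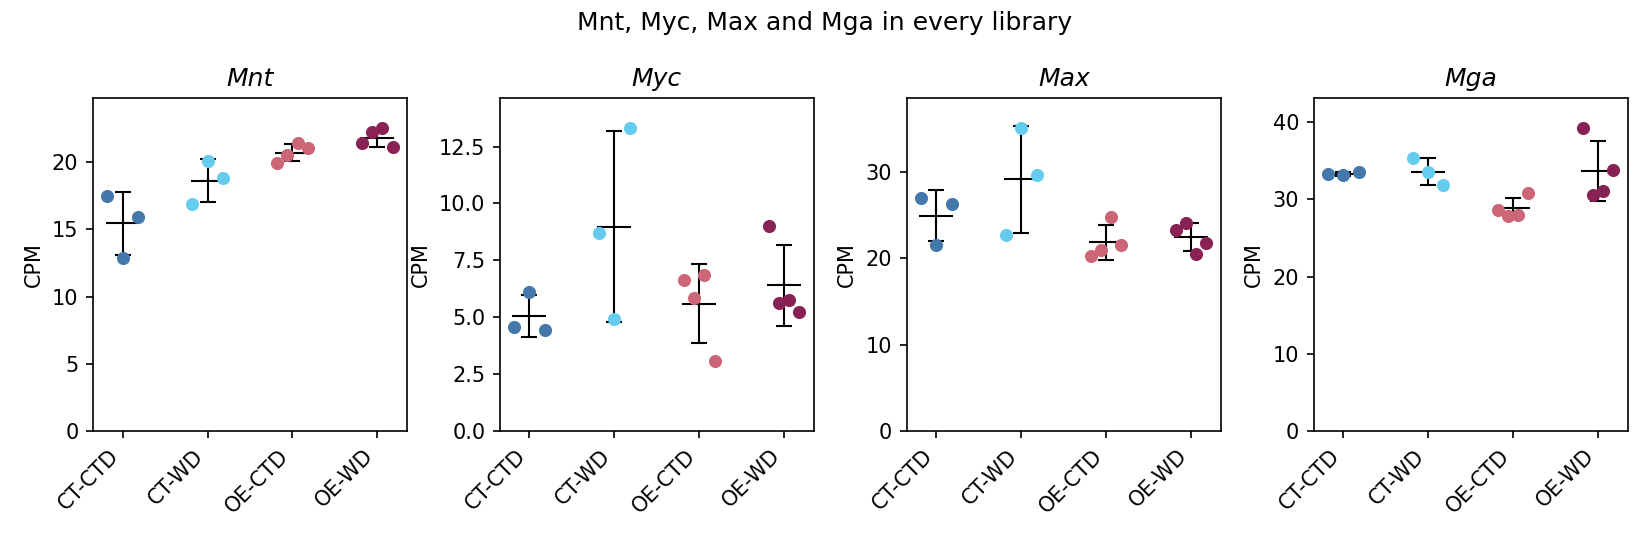
CPM (y axis) of Mnt, Myc, Max and Mga in each library (points) by group (x axis), with bars for the mean and SD of 3 libraries in the CT groups and 4 in the OE groups. The OE-CTD points of Mnt, from 19.9 to 21.4 CPM, lie above all CT-CTD points, and those of Mga, from 27.9 to 30.8 CPM, lie below.

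The Mxd genes encode repressors that take the place of Myc on Max, often as cells stop dividing and differentiate. Mxi1, also called Mxd2, was the most abundant of them, between 44.6 and 63 CPM. Its log2 fold changes in the 4 comparisons lay between -0.0078 and 0.08, and all of its intervals, from -0.228 to 0.301, lay within a fold of 1.5. Its highest library was OE-CTD 4 at 63 CPM, and the next was CT-CTD 1 at 58.7 CPM.

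Mxd4 lay between 35.9 and 50.6 CPM. All 3 CT-WD libraries, at 42.3, 43.8 and 37.2 CPM, were below the 3 CT-CTD libraries, at 48.1, 44.5 and 47.7 CPM. The log2 fold change of Mxd4 on the diet in CT mice was -0.19 (SE 0.109, p 0.108, adjusted p 0.805 in edgeR), and over the alternatives its adjusted p ran from 0.548 to 0.99 and, with 1 library left out, its log2 value from -0.23 to -0.12. In the other comparisons its log2 values lay between -0.11 and 0.087, and its 4 intervals, from -0.419 to 0.305, lay within a fold of 1.5.

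Mxd1, between 3.34 and 6.21 CPM, gave log2 values between 0.0065 and 0.32, and its highest value, in CT-WD against CT-CTD, had p 0.166. Without CT-CTD 1, at 5.81 CPM the highest library of its group, that value was 0.62, without CT-CTD 3 it was 0.18, and its adjusted p ran from 0.409 to 0.995 over the alternatives. The Mxd1 value in OE-CTD against CT-CTD was 0.22, and without the same 2 libraries it was 0.52 and 0.077. Mxd3 had 0 counts in all 3 CT-CTD libraries, where a count of 0 allows up to 0.126 CPM for counting error alone. It had 1, 6 and 0 counts in CT-WD. Counts in OE-CTD were 8, 1, 3 and 0, while OE-WD had 4, 2, 2 and 0. No fold is given for Mxd3, since its counts are at the limit of this depth, and a gene on the opposite strand that overlaps it, Prelid1, had a mean of 15.5 CPM. The strand setting of the counting is not given in the labels.

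Levels most like those of Mxi1 over the 14 libraries were those of Stk11ip (r 0.87), Syt3 (r 0.865) and Pdk2 (r 0.86). For Mxd4 they were those of Gbp9 (r 0.808), Fancm (r 0.789) and Myef2 (r 0.786), and for Mxd1 those of Cwf19l1 (r 0.902), Ctdspl (r 0.835) and Hnmt (r 0.834).

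Mlx is the Max-like partner of Mlxip, and Mlxip moves to the nucleus when glucose 6-phosphate rises and activates Txnip and Arrdc4. Mlx lay between 7.16 and 11.1 CPM, with its highest library CT-WD 1 and its lowest CT-WD 3. The 4 log2 values of Mlx lay between -0.11 and -0.018, and their intervals, from -0.452 to 0.301, lay within a fold of 1.5. Psmc3ip, which overlaps Mlx on the opposite strand, had a mean of 10.6 CPM.

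Mlxip levels were 129, 132 and 112 CPM in CT-CTD and 106, 124 and 98.7 CPM in CT-WD. OE-CTD had 90, 102, 89.8 and 140 CPM, and OE-WD had 108, 104, 109 and 172 CPM. The highest Mlxip libraries were OE-WD 4 and OE-CTD 4, the libraries that stood apart, and the groups overlapped in all comparisons. In OE-CTD against CT-CTD the log2 fold change of Mlxip was -0.24 (SE 0.179, p 0.207, adjusted p 0.58 in edgeR). Leaving out OE-CTD 4 and OE-WD 4 together gave -0.40 with adjusted p 0.0382. With a replicate block it was -0.41 with adjusted p 0.0143. The replicate numbers were not read as pairs there, since libraries of the same number correlated at 0.0465, -0.113 and -0.122. Over all alternatives the adjusted p of this Mlxip value ran from 0.0143 to 0.943. Without OE-CTD 4 alone the value was -0.40 with adjusted p 0.202. The value in OE-WD against OE-CTD was 0.22 (p 0.197), and without OE-WD 4 it was 0.02 and without OE-CTD 4 it was 0.39. Between OE-WD and CT-WD it was 0.17 (p 0.359), and without OE-WD 4 it was -0.034. On the diet in CT mice Mlxip gave -0.18 (SE 0.192, p 0.359), and -0.28 to -0.11 with 1 library left out. It was lower in CT-WD for each of the 3 replicate numbers, and with the block the value was -0.18 (p 0.0405, adjusted p 0.541). The Mlxip interaction was 0.41 (SE 0.253, p 0.13), and it was 0.20 without OE-WD 4 and 0.57 without OE-CTD 4. Rbm33 (r 0.948), Prkar2a (r 0.925) and Ibtk (r 0.921) had the levels most like those of Mlxip.

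The targets of Mlxip and Mlx on the list were Txnip, Arrdc4 and Klf10, and 0 of 3 passed an unadjusted p of 0.05 in any comparison, nor an adjusted p of 0.05, in edgeR. Their sum, led by Txnip, was lowest in OE-CTD 4 at 326 CPM and in OE-WD 4 at 355.1 CPM, the libraries highest in Mlxip. The other libraries lay between 491.3 and 795.7 CPM. Arrdc4 gave a log2 value of 0.25 in OE-CTD against CT-CTD (p 0.0741, adjusted p 0.38) and Txnip gave -0.31 (p 0.216, adjusted p 0.59).

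Mga is a large factor with a T-box besides its Max-binding domain, and it brings a Polycomb complex to DNA. Its levels were 33.3, 33.1 and 33.6 CPM in CT-CTD and 35.3, 33.6 and 31.8 CPM in CT-WD. OE-CTD had 28.6, 27.9, 28 and 30.8 CPM, and OE-WD had 39.2, 30.6, 31.1 and 33.8 CPM. OE-CTD was the low group, and all 4 of its libraries lay below all 3 of CT-CTD. In that comparison the log2 fold change of Mga was -0.21 (SE 0.0882, p 0.0305, adjusted p 0.25 in edgeR), and its adjusted p ran from 0.134 to 0.712 over the alternatives. The diet in OE mice gave Mga a value of 0.23 (SE 0.0818, p 0.0143, adjusted p 1), and without OE-WD 1, the highest library, it was 0.14. Without OE-CTD 4 and OE-WD 4 together the Mga values were -0.24 (adjusted p 0.159) and 0.26 (adjusted p 0.993). Mga gave 0.0054 in OE-WD against CT-WD (p 0.952). The Mga interaction was 0.22 (SE 0.125, p 0.105), and without OE-WD 1 it was 0.13. All 4 intervals of Mga, from -0.397 to 0.4, lay within a fold of 1.5. Zfp879 (r 0.842), Ppp4r2 (r 0.818) and Rabif (r 0.796) had the levels most like those of Mga.

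Partners of Mga in its Polycomb complex were tested as a list of 9 genes, of which 8 had lower values in OE-CTD than in CT-CTD, as did Mga. At an unadjusted p under 0.05 there were 2 lower, L3mbtl2 at -0.32 (adjusted p 0.104) and Yaf2 at -0.24 (adjusted p 0.149), and 0 passed the adjusted limit in edgeR. The median log2 value of the list was -0.10. On the diet in CT mice 7 of the 9 had lower values, with a median of -0.136, where Mga gave 0.01 (p 0.913). The same 2 genes had an unadjusted p under 0.05 there, Yaf2 at -0.22 and L3mbtl2 at -0.26. These comparisons share the CT-CTD libraries. The remaining pairwise comparisons had 0 of 9 at an unadjusted p under 0.05. In the interaction Pcgf6 gave 0.54 (p 0.0266, adjusted p 0.834).

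The balance of the network was described in FPKM as the share of Myc among the genes whose products compete for Max, namely Myc, the Mxd genes, Mnt and Mga. Myc made up 8.29% of that sum in CT-CTD (SD 1.79, n = 3), 13.6% in CT-WD (SD 6.26, n = 3), 8.64% in OE-CTD (SD 2.75, n = 4) and 9.5% in OE-WD (SD 2.56, n = 4). The highest share was 20% in CT-WD 3 and the lowest 4.61% in OE-CTD 4, and all groups overlapped. The sum of Mnt and the Mxd genes was steadier, with group means of 20.2, 20.6, 21.8 and 22.1 FPKM in the same order. Max divided by the sum of its partners was 0.307 in CT-CTD (SD 0.0345), 0.333 in CT-WD (SD 0.071), 0.254 in OE-CTD (SD 0.0268) and 0.252 in OE-WD (SD 0.0185). Levels of RNA do not give levels of the proteins or of their dimers.

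Between members, the highest correlations of log2 levels over the 14 libraries were those of Mxd1 with Mnt (r 0.62) and of Mxi1 with Mlxip (r 0.551). The lowest were those of Myc with Mxd4 (r -0.587), with Mlxip (r -0.535) and with Mxi1 (r -0.502). Myc and Max had r 0.119, Myc and Mnt -0.038, and Mlx and Mlxip -0.355. The 14 libraries of these pairs share groups, and the values describe them only.

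Family genes outside the members were Mycn and Mycl, which resemble Myc, and Mlxipl, also called ChREBP, which resembles Mlxip. Mlxipl had a mean of 23.4 FPKM and exceeded Mlxip in 14 of 14 libraries. Its largest log2 value in the 4 comparisons, -0.12 in OE-CTD against CT-CTD, had p 0.266. Mycn had 15, 12 and 9 counts in CT-CTD, 10, 8 and 5 in CT-WD. Its OE-CTD counts were 17, 43, 37 and 17, while OE-WD had 8, 9, 23 and 12. OE-CTD lay above CT-CTD with no overlap, at a log2 fold change of 1.20 (SE 0.454, p 0.018, adjusted p 0.196 in edgeR). On the diet in OE mice Mycn gave -1.11 (SE 0.41, p 0.016, adjusted p 1), and the groups overlapped. Mycl had 1 to 43 counts per library, and none of its comparisons had an unadjusted p under 0.05.

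Of 14 Myc coactivators 0 passed the adjusted limit in any comparison in edgeR. Trrap, in CT-WD against CT-CTD, gave -0.23 (p 0.013, adjusted p 0.578) and Paf1 gave 0.22 (p 0.0365, adjusted p 0.651). Between genotypes on the western diet Kat2a gave -0.20 (p 0.0484), and in the other 2 pairwise comparisons 0 of 14 had an unadjusted p under 0.05. In the interaction Trrap gave 0.25 (p 0.0317, adjusted p 0.834). Of 11 genes of Myc protein turnover 0 passed the adjusted limit, which does not exclude changes, as for Cip2a in OE-WD against CT-WD (-0.51, 95% interval -1.14 to 0.129) and Skp2 in OE-CTD against CT-CTD (-0.47, -1.18 to 0.242). Axin1, a scaffold for phosphorylation of Myc, gave 0.23 in OE-WD against OE-CTD (p 0.0495) and 0.31 in OE-WD against CT-WD (p 0.0194, adjusted p 0.207), and 0 of 11 had an unadjusted p under 0.05 in the remaining comparisons.

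Corepressors of the Mxd proteins and Mnt were a list of 13 genes of the Sin3 and NCoR complexes, and 0 passed the adjusted limit in any comparison in edgeR. Sap30, a Sin3 subunit, gave a log2 value of 0.97 in CT-WD against CT-CTD (SE 0.262, p 0.00205, adjusted p 0.427) and -0.83 in OE-WD against CT-WD (SE 0.24, p 0.00356, adjusted p 0.112). Sin3a, the scaffold of that complex, gave 0.46 in OE-WD against CT-WD (p 0.0156, adjusted p 0.187). In that comparison 9 of 13 were lower and 4 higher, with 2 lower and 1 higher at an unadjusted p under 0.05. Where Mnt was higher, in OE-CTD against CT-CTD, 0 of 13 had an unadjusted p under 0.05 and the median was 0.0082. The diet in OE mice left 0 of 13 at such a p, and in the interaction Sap30 gave -0.995 (p 0.0114, adjusted p 0.825).

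Classic Myc-induced genes, 30 in the list, serve ribosome production, translation and metabolism. Between genotypes on the control diet 15 were higher and 15 lower, with a median log2 value of -0.019, and 1 was higher and 2 lower at an unadjusted p under 0.05. Odc1, the first enzyme of polyamine synthesis, was the 1 that passed the adjusted limit, and it fell by 1.502 on the log2 scale (SE 0.222, adjusted p 0.00575 in edgeR). On the western diet, OE-WD against CT-WD, 21 of 30 were lower, with a median of -0.11, and 5 were lower and 1 higher at an unadjusted p under 0.05. Odc1 gave -0.90 there (adjusted p 0.07) and the mitochondrial chaperonin gene Hspe1 gave -0.43 (adjusted p 0.0918). The diet in CT mice had 19 of 30 higher, with Pa2g4 at 0.19 (p 0.0474), and the median was 0.06. In OE mice on the diet 18 were lower, with Cdk4 at -0.24 (p 0.0148), and in the interaction 21 were lower, with Pa2g4 at -0.26 (p 0.04). The sum of the list, led by Ldha, had group means of 4440, 4570, 4040 and 3990 CPM in CT-CTD, CT-WD, OE-CTD and OE-WD. These sums overlapped between genotypes, at 3958 to 4765 CPM in CT-CTD and 3816 to 4526 CPM in OE-CTD. On the western diet they were 3994 to 5003 CPM in CT-WD and 3732 to 4515 CPM in OE-WD.

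FoxO factors and their targets, which include genes of muscle protein breakdown and of fuel choice, were a list of 13 genes led by Pdk4. Their sums were between 3546 and 4592 CPM in CT-CTD and between 4639 and 6169 in CT-WD. OE-CTD lay between 2275 and 2679 CPM, while OE-WD lay between 2133 and 4071. These sums, like the levels of Mnt, did not overlap between OE-CTD and CT-CTD or between OE-WD and CT-WD, but they were lower where Mnt was higher. In CT-WD against CT-CTD, where Mnt was also higher though its groups overlapped (adjusted p 0.62 in edgeR), the FoxO sums were higher without overlap. The gap was narrow, from 4592 CPM at the highest in CT-CTD to 4639 CPM at the lowest in CT-WD. The part of these genes in the Mnt difference was not tested. The list as a whole did not follow its sum on the control diet, where 7 of 13 were higher and 6 lower, with a median of 0.026. At an unadjusted p under 0.05 there were 3 lower and 1 higher, Sesn1 at 0.25 (p 0.0386). On the western diet 10 of 13 were lower, 6 at that p, and 1 was higher at it, Sesn3 at 0.38 (p 0.0194). On the western diet, between OE-WD and CT-WD, Trim63 fell by 1.43, Gadd45a by 1.19 and Pdk4 by 1.08 on the log2 scale (adjusted p 0.0276, 0.0345 and 0.043). Fbxo32, in OE-CTD against CT-CTD, fell by 1.04 (adjusted p 0.0345). The diet in CT mice had 5 of 13 higher at an unadjusted p under 0.05 and 0 at the adjusted limit in edgeR, with Trim63 at 1.30 (adjusted p 0.277). In OE mice on the diet 0 of 13 had such a p, and in the interaction 4 of 13 were lower at an unadjusted p under 0.05.

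Other cell type lists held no gene past the adjusted limit in the comparison where Mnt passed it. There, slow fibre markers were higher in 7 of 7, 3 of them at an unadjusted p under 0.05, with group means of 4780 and 5810 CPM. Of 9 fast fibre markers 1 was lower at that p, of 8 skeletal muscle markers 1 was higher, and of 6 mural cell markers 1 was higher. Adipocyte markers had 1 of 6 higher and 1 lower, with sums from 45.82 to 182.7 CPM in CT-CTD and from 42.87 to 122.1 CPM in OE-CTD. Erythroid (4 tested), Schwann cell (5), satellite cell (4) and epidermal (4) markers had 0 at that p. In the other comparisons 0 genes of these lists passed the adjusted limit in edgeR, and at most 2 of a list had an unadjusted p under 0.05. Lymphocyte markers were near 0, summing to at most 0.4679 CPM in a library, and none of the 5 passed the filter on low counts.

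Promoters of 9 of the 10 members were found in the RefSeq promoter table of build GRCm38.p6, as 11 promoters of 300 bases, 250 before the gene start and 50 after it. Myc had no entry. The E-box that Myc and Max recognise, CACGTG, reads the same on both strands, and it occurred in 7.15% of all 32851 promoters of that length and in 8.09% of the 27025 genes. Among the members 4 had it, Max, Mnt, Mxd4 and Mlx, each with 1 match. The match is a description of the sequence and not evidence of binding. For Mnt, which passed the test, the 250 bases before the gene start are shown, from chr11:74830674-74830923 on the plus strand, with the E-box in capitals starting at base -123 from the gene start. For the other members the E-box is shown with 27 bases on each side, from chr12:76962219-76962278 on the minus strand for Max (starting at base -3), chr5:34187897-34187956 on the minus strand for Mxd4 (base -219) and chr11:101087223-101087282 on the plus strand for Mlx (base -40). All are written 5′ to 3′ on the strand of the gene.
Mnt: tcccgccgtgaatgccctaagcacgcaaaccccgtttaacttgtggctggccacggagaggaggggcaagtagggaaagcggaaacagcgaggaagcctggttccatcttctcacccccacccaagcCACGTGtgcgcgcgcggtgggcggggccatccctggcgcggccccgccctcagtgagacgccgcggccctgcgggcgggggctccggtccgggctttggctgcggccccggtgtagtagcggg
Max: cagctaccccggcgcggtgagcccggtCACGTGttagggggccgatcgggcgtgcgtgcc
Mxd4: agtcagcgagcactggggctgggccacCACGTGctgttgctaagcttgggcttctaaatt
Mlx: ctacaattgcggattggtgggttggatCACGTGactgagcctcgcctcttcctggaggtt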

How the data were processed

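RNA sequencing of skeletal muscle was read from the tables of 14 libraries. The authors deposited counts, raw reads per gene, and FPKM, which the authors scaled per kilobase of gene length and by a library total. Their notes name HISAT2 2.0.5, featureCounts 1.5.0-p3 and mm10, and no strand setting. The ratio of FPKM to counts per length was checked and was constant within each library, for a total of 79.93 to 97.97% of the counts. Members were found by gene name, and the members and the gene lists were chosen with earlier results of these data known.

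Counts were fitted in R 4.3.3 with edgeR 4.0.16 (TMM scaling, filterByExpr, 1 mean per group, quasi-likelihood test) over all 14 libraries and 15458 genes, which left out 0.0467 to 0.0694% of the counts. The p-values were adjusted by Benjamini-Hochberg over those genes. CPM used the TMM-scaled library totals. Depth was 21833839 to 28519159 counts, and intervals are 95%. The comparisons were diet within genotype, genotype within diet, and their interaction. Alternatives were RLE factors, no filter, DESeq2 1.42.0, limma 3.58.1 on log2(FPKM + 1) and log2(FPKM + 0.1), a replicate block, a fit of the 2 groups compared, leaving out each library, exchanged names of CT-WD and OE-CTD (counts only), and, chosen after seeing the data, leaving out OE-CTD 4 and OE-WD 4 together, summing the libraries of a group whose codes share their digits, and the number of members at an adjusted p under 0.05.

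From each list and comparison up to 4 genes at an adjusted p under 0.05 were named by size of change, or up to 2 with the smallest p where none passed. Genes most like a member were the 5 highest Pearson correlations of log2 CPM for Myc and the 3 highest for the others, among genes with a mean of at least 1 CPM. The labels do not say that replicate numbers pair mice. Deviations from the group means of libraries with the same number correlated at 0.385, 0.123 and 0.203 between CT-WD and CT-CTD, all over 0.1. For that comparison the replicate block was therefore also read, from these data alone. The block fitted an effect per replicate number over all 14 libraries, shared by both genotypes. It is thus not a paired test of CT-WD and CT-CTD alone.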

Additional observations from a re-analysis of the deposited data

Results flagged for a closer look

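Within groups of 4 libraries, the highest or lowest level of each tested member was compared with its nearest neighbour, as a share of the range of the group. Of 18 such groups 2 held a library far from the others, and chance gives about 1 in 20. Myc in OE-WD 1 was 9.03 CPM, where the nearest library was 5.74 CPM. Mlxip in OE-WD 4 was 172 CPM, where the nearest was 109 CPM, and OE-WD 4 was also a library with a high mitochondrial share.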

How the results depend on the processing

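The 45 member fold changes were recomputed under the alternatives, giving 1026 values, of which 956 kept their direction and their side of an adjusted p of 0.05, and 53 changed direction, all for values of at most 0.184 in size on the log2 scale. No alternative called a member altered, and RLE factors changed no call. Apart from the exchange of names, which moves each value to another comparison, the causes of the following changes were not tested. Genes altered in CT-WD against CT-CTD were 88 with no filter, 31 with DESeq2, 295 with exchanged names and 0 to 41 with 1 library left out (41 without CT-WD 1, 1 without CT-WD 2, 3 without OE-WD 1). The OE diet comparison had 5 with no filter, 87 exchanged, 0 without OE-CTD 4 and OE-WD 4 together and 0 to 2 with 1 library left out (0 without OE-CTD 1, 2 without OE-WD 1). Between genotypes on the western diet there were 401 with no filter, 308 with DESeq2, 30 with limma at either pseudocount, 4 with the 2 groups alone, 1 exchanged, 4 without both libraries and 4 to 905 with 1 left out (905 without CT-WD 1, 13 without CT-WD 2, 7 without CT-WD 3, 53, 43 and 57 without OE-CTD 1, 2 or 3, and 4, 6 and 13 without OE-WD 2, 3 or 4). On the control diet there were 570 with no filter, 504 with DESeq2, 117 and 196 with limma at pseudocounts of 1 and 0.1, 0 exchanged and 64 to 440 with 1 left out (99 without CT-CTD 2, 64 without CT-CTD 3, and 170, 102 and 102 without OE-CTD 1, 2 or 3). In the interaction they were 29 with no filter, 9 with DESeq2 and 0 to 1 with 1 left out (1 without CT-WD 1 and 1 without CT-WD 2). Members at an adjusted p under 0.05 in OE-CTD against CT-CTD were 0 with no filter, with limma at a pseudocount of 1, with the 2 groups alone and with exchanged names, 2 (Mnt and Mlxip) with the replicate block and 0 to 1 with 1 library left out. Without both libraries the 1 member was Mlxip and not Mnt. They were 1 (Mnt) in CT-WD against CT-CTD with exchanged names, and in OE-WD against CT-WD 0 to 1 with 1 library left out (Max without CT-WD 1). For Mnt in OE-CTD against CT-CTD the log2 value was 0.42 with no filter (adjusted p 0.0509), 0.35 with limma at a pseudocount of 1 (0.0517), 0.42 with the 2 groups alone (0.0674), 0.41 without both libraries (0.0568) and 0.31 to 0.52 with 1 library left out, its adjusted p ranging from 0.00759 to 0.467 over all alternatives. Mlxip there was -0.41 with the replicate block and -0.40 without both libraries, and Max in OE-WD against CT-WD was -0.53 to -0.22 with 1 left out. Values that changed direction were those of Mxd4 in OE-WD against OE-CTD (-0.00032 with the 2 groups alone, -0.034 without both libraries), and without both libraries those of Mxi1 in OE-WD against OE-CTD (0.048), between genotypes on the control diet (-0.0022) and in the interaction (0.036), of Mlx on the western diet between genotypes (0.029), on the control diet between genotypes (0.033) and in the interaction (-0.0045), and of Mlxip in OE-WD against CT-WD (-0.037). Mlx in OE-WD against CT-WD was also 0.007 and 0.011 with limma and 0.057 with the block, and with the block Mlx in OE-CTD against CT-CTD was 0.024, Mlxip in OE-WD against CT-WD -0.014 and Mga there -0.014. With 1 library left out, direction changed within these ranges: in CT-WD against CT-CTD Mxi1 -0.082 to 0.11, Mlx -0.31 to 0.021 and Mga -0.028 to 0.049; in OE-WD against OE-CTD Myc -0.028 to 0.30, Mxd4 -0.071 to 0.089 and Mxi1 -0.037 to 0.072; in OE-WD against CT-WD Mxd1 -0.083 to 0.12, Mlx -0.15 to 0.18, Mlxip -0.034 to 0.27 and Mga -0.076 to 0.048; in OE-CTD against CT-CTD Mxi1 -0.0104 to 0.19 and Mlx -0.11 to 0.035; and in the interaction Mxi1 -0.12 to 0.073 and Mlx -0.11 to 0.22. The replicate block gave Myc 0.78 and Mnt 0.27 in CT-WD against CT-CTD and 0, 1, 77, 388 and 0 genes altered in the 5 comparisons, and it changed no member call but that of Mlxip. Summing the libraries of a group with the same code digits gave 1, 0, 0, 1 and 0 genes altered in the 5 comparisons and 0 members at an adjusted p under 0.05 in each; Mnt in OE-CTD against CT-CTD was 0.425 (adjusted p 0.467), and Myc there changed direction to -0.0556. Libraries of the same number correlated at 0.0711, 0.138, 0.142 and 0.338 in the OE diet comparison, and at -0.23 to -0.065 and -0.12 to 0.047 in the genotype comparisons, which are not paired. Depth limits Mxd3 most, with at most 8 counts in a library.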
